A study of Mus musculus with 25 samples.

Results

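Vascular smooth muscle-like cells are the cells of the lung mesenchyme in these libraries that carried the transcripts of the mature smooth muscle contractile machinery. They were picked by their own unique molecular identifier (UMI) counts. Among cells with 200 to 7500 detected genes and at most 20% mitochondrial UMIs, a cell was a member when it held at least 3 UMIs of Myh11, smooth muscle myosin heavy chain, and at least 1 UMI of Cnn1, calponin 1. It also had to hold fewer than 5 UMIs of Hhip, which marks a peribronchial and myofibroblast-like population, and no UMI of the mesothelial gene Upk3b or the endothelial gene Cdh5. By this rule 485 of 12059 kept cells (4.02%) were members, out of 13900 barcodes in 5 single-cell libraries.

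The study followed lung fibrosis after a single intratracheal dose of bleomycin and asked what happens when the death receptor Fas is removed from collagen-producing cells. All mice carried floxed Fas alleles (Fas fl/fl, exon 9 between the loxP sites) and a tamoxifen-inducible Cre recombinase under the Col1a1 promoter (Col1a1-CreERT2). Mice given corn oil kept Fas (Fas+/+, labelled WT), mice given tamoxifen are the deleted group (Fas-/-, labelled FasDel), and naive Fas fl/fl mice were the control. Lungs were taken 3 or 6 weeks after bleomycin, and lineage-negative (Lin-) cells without CD45, CD31 or CD326 were sorted. Each of the 5 conditions (naive, week 3 WT, week 3 FasDel, week 6 WT, week 6 FasDel) had 1 single-cell library and 4 bulk RNA-seq libraries. Tamoxifen and genotype are one factor in this design and cannot be told apart, and Cre acts only where the Col1a1 promoter is active. The labels name the source as primary lung fibroblasts, but the sort also kept other CD45, CD31 and CD326 negative cells such as those described here. Per the study's legends each single-cell library pooled mice. Whether the bulk and single-cell libraries came from the same mice was not stated.

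Vascular smooth muscle cells form the contractile wall of arteries and larger veins. Contraction starts with a rise in cytosolic calcium, which activates myosin light chain kinase and lets smooth muscle myosin pull on actin filaments made largely of Acta2, and nitric oxide reverses it through cyclic GMP. The contractile genes are switched on together by serum response factor with its coactivator myocardin, at a short DNA element called the CArG box. Notch3, Heyl and Hey2 set arterial identity, pericytes are the related mural cells of capillaries, and in injured vessels smooth muscle cells are known to lose contractile proteins and make matrix.

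The boxes are visible upstream of several of the genes that marked these cells. Of 135 genes of the smooth muscle set defined further on that were found in the RefSeq promoter table, 11 (8.15%) had a CArG box within 250 bases before to 50 bases after an annotated start, as did 3 of 17 contractile genes (17.6%; Actc1, Myl6 and Myl9) and 488 of all 27025 genes (1.81%) over windows of the same length. The pattern reads the same on both strands. The 250 bases upstream of the start are shown for 4 of these genes, all of them parts of the contractile apparatus or sarcomere, 5′ to 3′ on the gene's strand (RefSeq, build GRCm38.p6), with the box in capitals.
Actc1, cardiac alpha actin (chr2:114052876-114053125, minus strand): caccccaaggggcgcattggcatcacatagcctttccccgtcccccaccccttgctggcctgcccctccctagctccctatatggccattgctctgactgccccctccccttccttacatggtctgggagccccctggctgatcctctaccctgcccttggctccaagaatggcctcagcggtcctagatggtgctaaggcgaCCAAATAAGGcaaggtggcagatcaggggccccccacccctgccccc
Myl9, regulatory myosin light chain (chr2:156775214-156775463, plus strand): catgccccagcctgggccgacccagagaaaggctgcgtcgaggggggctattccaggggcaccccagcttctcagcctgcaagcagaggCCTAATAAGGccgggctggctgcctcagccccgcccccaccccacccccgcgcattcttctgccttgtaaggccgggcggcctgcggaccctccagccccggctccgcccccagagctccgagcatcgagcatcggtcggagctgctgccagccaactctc
Myl6, essential myosin light chain (chr10:128493010-128493259, minus strand): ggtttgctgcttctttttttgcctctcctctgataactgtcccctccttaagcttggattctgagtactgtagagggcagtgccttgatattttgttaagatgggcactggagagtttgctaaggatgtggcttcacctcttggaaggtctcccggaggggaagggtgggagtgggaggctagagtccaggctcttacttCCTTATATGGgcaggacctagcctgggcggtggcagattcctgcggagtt
Myom1, myomesin 1 (chr17:71019307-71019556, plus strand): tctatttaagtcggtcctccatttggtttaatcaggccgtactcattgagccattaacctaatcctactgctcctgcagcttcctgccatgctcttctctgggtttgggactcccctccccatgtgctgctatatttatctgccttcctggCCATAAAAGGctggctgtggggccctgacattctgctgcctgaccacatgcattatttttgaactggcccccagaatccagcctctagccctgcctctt
The box lies 47 to 38 bases before the start in Actc1, 50 to 41 in Myl6, 99 to 90 in Myom1 and 161 to 152 in Myl9. No such box was found in the windows of Acta2, Cnn1, Lmod1 or Itih4, which says only that these letters are not in these windows.

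The libraries were not independent at the barcode level. Of 12811 distinct barcodes, 607 occurred in more than 1 library and 63 in all 5, and in the naive library 378 of 766 barcodes (49.3%) were also found elsewhere. Profiles of the same barcode in a pair of libraries correlated with a median r of 0.151 to 0.410, against -0.0272 to 0.000172 for different barcodes. The copy in the naive library was the deep one, with a median of 9537.5 to 16671 UMIs against 734 to 912 in the other libraries. Among the vascular smooth muscle-like cells 28 of 31 naive members had a barcode seen elsewhere, and 39 members were shallower copies, of which 0 were naive, 7 week 3 WT, 7 week 3 FasDel, 9 week 6 WT and 16 week 6 FasDel. Keeping each barcode only where it had most UMIs left 446 members, and values without copies are given beside those that rest on them.

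Fas, the deleted gene, was low in these cells and did not separate the genotypes. Levels are in CPM, a gene's UMIs or reads scaled to the total of the cells or the library. Fas was 39.9 CPM in naive, 46.5 and 45.1 CPM at week 3 in WT and FasDel, and 54.1 and 65.4 CPM at week 6. The FasDel to WT ratio was 0.983 at week 3 (interval 0.604 to 1.53 for counting error) and 1.20 at week 6 (0.877 to 1.68), so no difference was detectable at this depth. In all other kept cells the log2 ratio of Fas was -0.69 at week 3 and -0.60 at week 6. Col1a1, whose promoter drives Cre, was 615 CPM in naive members, 403 and 662 at week 3 and 2915 and 1347 at week 6, compared with 4557 CPM in fibroblasts pooled. In week 6 WT 3 members without Actc1 held 72.9% of the Col1a1 UMIs, and the median member had 8 UMIs, against 6 in week 6 FasDel. Counts cover the whole Fas transcript, and the deleted exon was not separable in these files.

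Vascular smooth muscle-like cells were 2.81% to 5.14% of the kept cells of each library. They were 31 of 603 kept cells in the naive library (5.14%, 95% Clopper-Pearson interval 3.52 to 7.22) and 112 of 2664 at week 3 in WT (4.2%, 3.47 to 5.04). At week 3 in FasDel they were 101 of 2608 (3.87%, 3.17 to 4.69). At week 6 they were 91 of 3240 cells in WT (2.81%, 2.27 to 3.44) and 150 of 2944 in FasDel (5.10%, 4.33 to 5.95). The week 6 WT share was the lowest, and its interval overlapped only that of week 3 FasDel among the other 4 libraries. Without copies the shares were 5.25%, 4.09%, 4.06%, 2.68% and 5.33% in the same order. The intervals cover counting error alone, and with 1 library per condition there was no test. The sort, the depth of each library and the number of other cells in each library also set these shares.

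**Figure D1:**
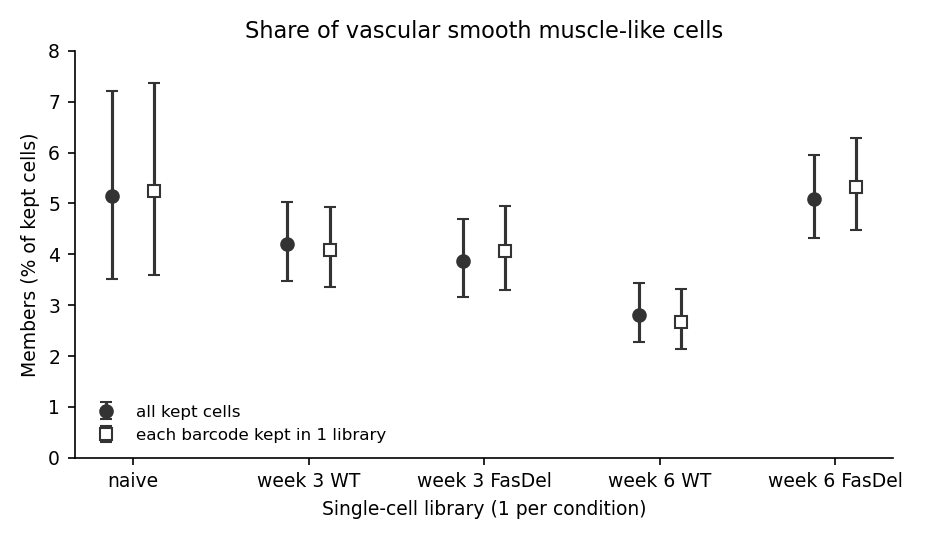
Share of kept cells (percent, y axis) that were vascular smooth muscle-like in each of the 5 single-cell libraries (x axis), with 95% Clopper-Pearson intervals; filled circles are all kept cells and open squares have each barcode kept in 1 library. The week 6 WT library is the lowest at 2.81%, and the other 4 lie between 3.87% and 5.14%.

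The cells were deep, which the UMI minimum of the rule favours, and had low sums of endothelial, epithelial and hematopoietic transcripts. Their median depth was 12666 UMIs in the naive library, 10461 and 6739 at week 3 in WT and FasDel, and 11404 and 9472 at week 6. All other kept cells had medians of 5687 to 8798.5. The median share of mitochondrial UMIs was 6.60% to 7.07% in members and 4.31% to 5.24% in other cells. Of the endothelial list (Pecam1, Ramp2 and others) 9 of 10 genes had a UMI, with summed levels of 8.54 to 63.1 CPM per library and Cdh5 at 0 by the rule. The epithelial list summed to 14.2 to 37.2 CPM with Epcam and Foxj1 at 0, the hematopoietic list to 0 to 8.46 CPM with 5 of 10 genes at 0, and the mesothelial list to 2.46 to 23.3 CPM. Acta1, Myh4 and Myod1 of skeletal muscle were at 0, and the cardiac list summed to 76.9 to 207 CPM, led by Tnnt2 and Ryr2, with Myl3 at 0. The airway smooth muscle and Hhip cell list was not low, at 2637 CPM pooled and led by Mustn1, Aspn and Enpp2, against 3766 CPM in Hhip-high cells and 630 CPM in pericyte-like cells. Mustn1 alone was 2034 CPM in members and 518 in Hhip-high cells, and Hhip is kept low by the rule.

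The marker genes identified the cells as smooth muscle, with Itih4 the least even. Myh11 and Cnn1 chose the members and are given as a description. Myh11 was 3483 CPM in naive, 3443 and 3355 CPM at week 3 in WT and FasDel, and 3229 and 3468 CPM at week 6. Actc1, cardiac alpha actin, was 3841, 2522, 2351, 2397 and 3399 CPM in the same order and was seen in 84.5% of members. In fibroblasts (Pdgfra and Dcn positive, Myh11 negative) Actc1 was seen in 4.81% to 11.4% of cells per library. Lmod1, leiomodin 1, a nucleator of actin filaments, was 928, 882, 962, 697 and 646 CPM and was seen in 93.8% of members. Itih4, a heavy chain of the inter-alpha-trypsin inhibitor family, was 609, 327, 163, 571 and 723 CPM and was seen in 50.5% of members, against 0.301% to 1.97% of fibroblasts. Lmod1 was lowest at week 6, and Itih4 was lowest in both week 3 libraries. Thinned to 3000 UMIs per cell, Itih4 was seen in 15 of 30 naive members, in 32.7% of 101 and 23.5% of 85 at week 3 in WT and FasDel, and in 51.2% of 82 and 52.7% of 131 at week 6. The numbers of shallower members left out were 1, 11, 16, 9 and 19.

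Cells just inside and just outside the thresholds are given by their markers. The 31 members with 3 or 4 Myh11 UMIs had a median depth of 1258 UMIs, 58.1% of them had Actc1 and 12.9% had Itih4, compared with 86.3% and 53.1% of the 454 members with 5 or more, whose median depth was 9802.5 UMIs. Just outside, 65 cells had 1 or 2 Myh11 UMIs with Cnn1, and 33.8% of those had Actc1. Another 247 cells had 3 or more Myh11 UMIs and no Cnn1. Of these only 18.2% had Actc1, while 72.1% had Cox4i2 and 64.4% Higd1b, both pericyte genes. Of 57 cells set aside for 5 or more Hhip UMIs, 52.6% had Actc1 but 7.02% had Itih4 and 7.02% Notch3. The 36 members with 1 to 4 Hhip UMIs had Itih4 in 44.4% and Actc1 at 3884 CPM, against 51.0% and 2733 CPM in the 449 with none. Another 26 cells were set aside for Upk3b or Cdh5 alone, and 84.6% of them had Actc1 and 53.8% Itih4, close to the members.

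Compared with the other mesenchymal classes, vascular smooth muscle-like cells had a far higher sum of contractile transcripts. These contrasts follow the selection of the members and carry no test. All 20 genes of a contractile apparatus list were seen, with a summed level of 80958 CPM in the naive library, 72033 and 66697 CPM at week 3 and 63489 and 65892 CPM at week 6. The pooled sum was 67946 CPM against 8673 in 918 Hhip-high cells (5 or more Hhip UMIs), 9407 in 456 pericyte-like cells (Cox4i2 and Higd1b seen, fewer than 3 Myh11 UMIs) and 5521 in 2738 fibroblasts. Acta2, smooth muscle alpha actin, alone was 17733 to 24472 CPM and was highest in naive. Tagln, the actin cross-linking protein transgelin, was 12036 to 15448 CPM. For channels and receptors the highest sum was not that of the members, as the calcium handling list summed to 1546 CPM in members and 2234 in pericyte-like cells, although 10 of 17 of its genes were higher in members. The vasoactive list summed to 2198 and 11065 CPM, with 7 of 20 genes higher in members. Both sums were lower in Hhip-high cells (881 and 1480 CPM) and fibroblasts (612 and 671 CPM).

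**Figure D2:**
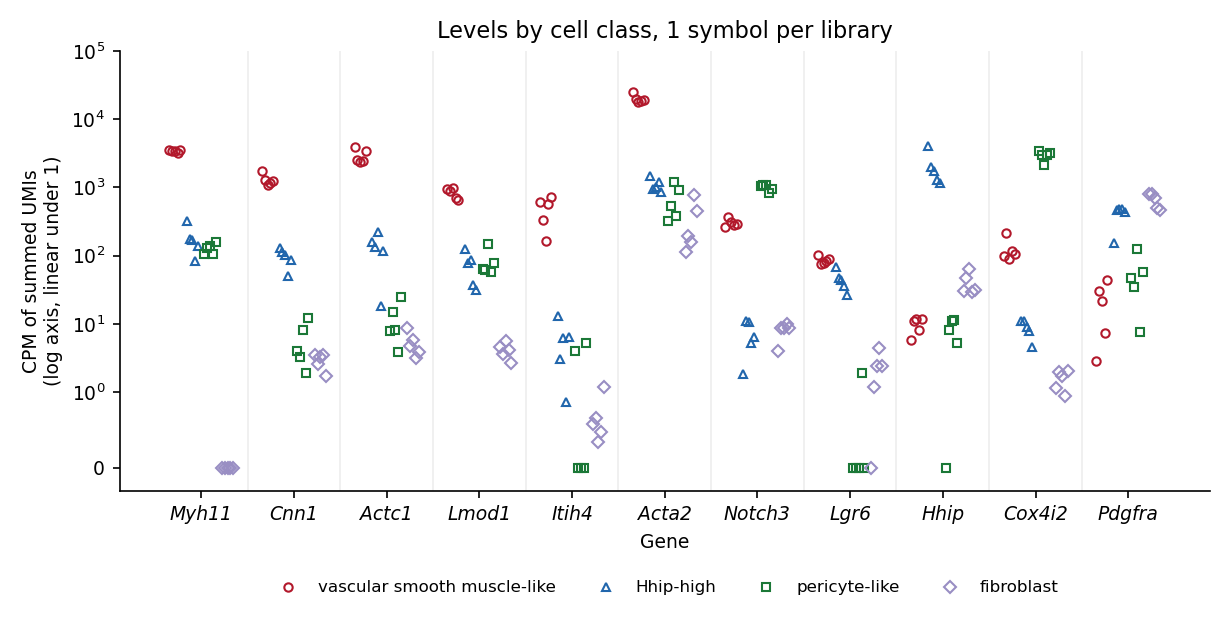
Levels (CPM of summed UMIs, y axis linear under 1 and logarithmic above) of 11 genes in 4 cell classes, with 1 symbol per library. Myh11, Cnn1, Actc1, Lmod1, Itih4 and Acta2 are highest in the vascular smooth muscle-like cells, Notch3 and Cox4i2 in pericyte-like cells, Hhip in Hhip-high cells and Pdgfra in fibroblasts.

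Against Hhip-high cells the highest within-library ratios, as medians of log2 over the 5 libraries, were those of Itih4 (4.76, range 3.41 to 5.74), Actc1 (4.51), Nov (4.34), a matricellular protein also called Ccn3, Tinagl1, Map3k7cl, Aoc3 (4.29), the vascular amine oxidase, Myh11, Notch3 (4.21, range 3.95 to 4.52), Mcam and Ebf1. Notch3, the receptor of mural cells, was 307 CPM in members, 7.12 in Hhip-high cells and 982 in pericyte-like cells. Against pericyte-like cells the leading genes were Actc1 (7.02), Cnn1 (6.58), Nov (5.77), Itih4 (5.47), Actg2, Map1b, Acta2, Clu, Mustn1 and Fam129a. Against fibroblasts, leaving out Myh11 and Cnn1, which the selection used, they were Actc1 (7.52), Acta2, Actg2, Lmod1, Itih4, Myl9, Tagln and Tpm2. Against all other kept cells Actc1 (6.30), Myh11 (5.71) and Cnn1 (5.49) led, followed by Acta2, Itih4, Actg2, Lmod1, Myl9, Nov and Tpm2. Where Myh11 and Cnn1 appear in these rankings the selection set them there.

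A set of 181 genes reached at least 4 times the level of each other class, and it served for the bulk libraries, which played no part in choosing the cells. By the ratio of pooled CPM, with no pseudocount, the first of them were Mylk4 (135 times the highest of the other classes and the remaining cells), a kinase of the myosin light chain kinase family, Sost (123), the Wnt inhibitor sclerostin, Susd5 (119), Itih4 (92.2), P2rx1 (82.2), an ATP-gated cation channel, and Kcna5 (76.5), a voltage-gated potassium channel. Ramp1, part of the receptor for the vasodilator peptide CGRP, was 32.3 times the next class and was seen in 75.7% of members. Myocd, encoding myocardin, was 104 CPM over the members pooled, 12.5 in Hhip-high cells and 0.861 in pericyte-like cells. Pln, phospholamban, which restrains the calcium pump of the sarcoplasmic reticulum, was 60.4 CPM against at most 3.02 in the other 3 classes.

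Pericyte and fibroblast markers were present at lower levels than in the cells they mark. The pericyte list summed to 663 CPM in naive and 922 to 1118 CPM after bleomycin, led by Cspg4, Pdgfrb and Pdzd2, against 12828 CPM in pericyte-like cells. Those cells were chosen by Cox4i2 and Higd1b, which are on this list. Pooled, the list was higher in members (965 CPM) than in Hhip-high cells (474 CPM) and fibroblasts (342 CPM). The fibroblast list summed to 871 to 1300.2 CPM, led by Limch1, Npnt and Dcn, against 7431 CPM in fibroblasts. Pdgfra was seen in 1 naive member, in 14 and 13 at week 3 in WT and FasDel, and in 8 and 14 at week 6.

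By the ratio of variance to mean, individual vascular smooth muscle-like cells spread most in Malat1, a nuclear noncoding RNA, and Mgp. This ratio tends to be larger for abundant genes, so its order is not an order of relative spread. With members thinned to 3000 UMIs, the variance-to-mean ratio was highest for Malat1 (38.2), Mgp (26.6), Acta2 (18.3), Hspa1b (14.4), Hspb1 (13.6), Ctgf (13.0), Actc1 (12.8), Thbs1 (12.7), Hspa1a (11.8) and Col3a1 (10.9), as medians over libraries. The median over 657 genes was 1.28. Mgp, matrix Gla protein, an inhibitor of calcification, ranged in this ratio from 14.5 in naive to 68.5 at week 6 in FasDel. Actc1 was at 0 in 5 naive members, 16 and 16 at week 3 in WT and FasDel, and 20 and 18 at week 6, so that 410 members with an Actc1 UMI form a stricter version of the population that is used below.

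Contractile transcripts stayed within 2-fold between libraries, as did most genes. Each ratio between libraries was taken over genes with at least 30 UMIs in the pair and counts as past the fold at 2 or more in either direction, with no test since each condition has 1 library. The comparisons with naive share that library. None of the 20 contractile genes passed the fold in any of the 6 pairs, where of all genes 3.37% were higher and 2.49% lower in week 3 WT over naive, 3.65% and 2.73% in week 3 FasDel over naive, 5.42% and 2.21% in week 6 WT over naive, and 5.49% and 2.6% in week 6 FasDel over naive. Between genotypes 1.52% were higher and 1.73% lower in FasDel at week 3, and 1.3% and 1.53% at week 6. With shares this low, 0 of 20 lies near the background and is no result about the contractile genes. The balance of higher and lower genes depends on the pseudocount. With 10 UMIs in place of 1, week 3 WT went from 207 higher and 153 lower to 17 and 448 of 6145 genes. Likewise week 6 FasDel went from 384 and 182 to 30 and 762 of 6996. The median log2 ratio of the contractile list was -0.09, -0.14, -0.33 and -0.26 over naive and -0.10 and 0.03 between genotypes. None passed the fold either when copies were removed, when cells were weighted equally or when only members with an Actc1 UMI were used.

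Itih4 was the marker that differed most at week 3. Its log2 ratio over naive was -0.90 in WT and -1.90 in FasDel (112 UMIs against 214 in naive, ratio 0.269, interval 0.211 to 0.338), where the log2 ratio in the other cells was 0.13. Among members with an Actc1 UMI it was -2.07 in FasDel. At week 6 the log2 ratio was -0.10 and 0.24. Actc1 was below naive in all 4 libraries, with log2 ratios of -0.61, -0.71, -0.68 and -0.18. Lgr6, a receptor for R-spondins, was 103 CPM in naive and 76.1 to 89.2 CPM in the other libraries, and all its intervals covered 1.

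Of the smooth muscle transcriptional regulators 1 of 10 was higher and 1 of 10 lower in both week 3 libraries, 1 and 2 of 11 in week 6 WT and 2 and 2 of 12 in week 6 FasDel, with list medians of -0.12 to 0.10. Of all genes 3.37% and 2.49%, 3.65% and 2.73%, 5.42% and 2.21%, and 5.49% and 2.6% were higher and lower in these 4 comparisons with naive. Counts of 1 or 2 genes are too few for a result about the list. Nr2f2 was higher and Klf4 lower in all 4 comparisons, and Rgs2, of the vasoactive list, is given with them. Klf4, a transcription factor that represses contractile genes, was 313 CPM in naive against 121, 156, 109 and 108 CPM in week 3 WT, week 3 FasDel, week 6 WT and week 6 FasDel. Its log2 ratios were -1.38, -1.01, -1.52 and -1.54, and in the other cells 0.36, 0.07, 1.30 and -0.06. In the naive library 5 cells held 59.1% of the Klf4 UMIs. Rgs2, an inhibitor of Gq signalling downstream of vasoconstrictor receptors, was 137 CPM in naive and 389, 582, 398 and 322 CPM after bleomycin. Its log2 ratios were 1.48, 2.06, 1.51 and 1.21, while in the other cells they lay between -0.46 and 0.16. Nr2f2, the nuclear receptor COUP-TFII of venous identity, was 137 CPM in naive and 333, 282, 284 and 281 CPM, with log2 ratios of 1.26, 1.02, 1.03 and 1.01. The other cells had Nr2f2 log2 ratios of -0.63 to -0.14. Without copies the log2 ratios of Klf4, Rgs2 and Nr2f2 differed by less than 0.05 from these.

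A few calcium handling genes were higher after bleomycin, as were some pericyte markers. Of the calcium handling list 3 of 15, 4 of 11, 3 of 12 and 3 of 14 measured genes were more than 2-fold higher over naive and 0 were lower. In the same order (week 3 WT, week 3 FasDel, week 6 WT, week 6 FasDel) 3.37%, 3.65%, 5.42% and 5.49% of all genes were higher. The shares of all genes that were lower were 2.49%, 2.73%, 2.21% and 2.6%. Of the pericyte list 4 of 8 (Cox4i2, Higd1b, Pdzd2 and Kcnj8), 2 of 7, 2 of 7 and 1 of 8 were higher and 0 lower, and Kcnj8, which is on both lists, was among the calcium genes counted in 3 comparisons. The part of pericyte transcripts in these values was not tested. Pln was 17.1 CPM in naive, from 6 UMIs, and 61.7, 96.1, 56.6 and 56.2 CPM after bleomycin. Its log2 ratios were 1.65, 2.29, 1.53 and 1.51, close to the 1.93, 1.89, 1.32 and 1.52 of the other cells. Ryr2, the calcium release channel, passed the fold in 3 of the 4 comparisons (log2 ratio 1.15, 1.06 and 1.13 in week 3 FasDel and at week 6 in WT and FasDel). Of the Notch list none was higher at week 3 and 1, Notch2, was lower in each genotype, and at week 6 Nrarp was higher and Hey2 lower in WT and Notch2 and Hes1 were lower in FasDel.

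A minority of the elastic fibre genes passed the fold at each time. Eln, tropoelastin, was 2873 CPM in naive, 985 and 1188 CPM at week 3 in WT and FasDel, and 2487 and 2793 CPM at week 6. Its log2 ratios over naive were -1.54 and -1.27 at week 3 and -0.21 and -0.04 at week 6, whereas in the other cells they were -0.13, 0.83, 0.71 and 1.08. Lox, which cross-links elastin and collagen, followed at 157, 68.5, 52.4, 157 and 147 CPM. At week 3, 2 of 13 elastic fibre genes in WT (Eln, Lox) and 4 of 11 in FasDel (Eln, Fbln5, Mfap5, Lox) were more than 2-fold lower. Of all genes 2.49% and 2.73% were lower at week 3, and 5.42% and 5.49% were higher at week 6. At week 6 none was lower and 4 of 12 in WT and 5 of 13 in FasDel were higher, with Fbn1, Emilin1 and Loxl2 in both and list medians of 0.14 and 0.32, against 0.40 and 0.36 in the other cells.

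Id2, an inhibitor of basic helix-loop-helix factors, was 681 CPM in naive, 413 and 424 CPM at week 3 and 297 and 251 CPM at week 6. Its log2 ratio reached -1.20 and -1.44 at week 6 while that of the other cells was 0.20 and 0.15. Clu, the secreted chaperone clusterin, was 424, 433 and 501 CPM through week 3 and 892 and 1027 CPM at week 6, where its log2 ratio over naive was 1.06 in WT and 1.27 in FasDel against -0.00 and -0.71 in the other cells. Mgp was 4941, 6301, 6776, 11909 and 11387 CPM, with log2 ratios at week 6 of 1.27 and 1.20 against 0.49 and 1.14. For these 3 genes each week 6 direction was the same when only members with an Actc1 UMI were used.

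Collagen and profibrotic transcripts were higher at week 6, and in the WT library a few cells held most of the Col1a1 UMIs. Over naive, 8 of 12 collagens (median log2 1.68) and 8 of 8 genes of a profibrotic fibroblast list (2.26) were more than 2-fold higher in week 6 WT. Of all genes 5.42% were higher in week 6 WT and 5.49% in week 6 FasDel. In the other cells the medians were 0.58 and 1.67. Col1a1 was 2915 CPM there, a log2 ratio of 2.24 over naive. The 3 members with most Col1a1 held 72.9% of its UMIs in that library (1288, 1065 and 240 UMIs), against 11.5% to 34.3% in the other 4 libraries. These 3 cells had 46184, 35966 and 34836 UMIs, 3, 3 and 12 Myh11 UMIs, no Actc1 and no Itih4, and 82, 70 and 9 UMIs of Cthrc1, the marker of profibrotic fibroblasts. The median member of week 6 WT held 8 Col1a1 UMIs, compared with 5 in naive and 6 in week 6 FasDel. Among the 71 of 91 members with an Actc1 UMI the Col1a1 log2 ratio was 0.36. Of the profibrotic list, 5 cells of week 6 WT held 71.2% of the Fn1, 63.4% of the Postn and 74.9% of the Tnc UMIs, but 42.4% of those of Thbs1.

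In the stricter population, 1 of 10 collagens (Col6a3; median 0.16) and 2 of 6 profibrotic genes (Spp1 and Ltbp2; median 0.67) were past the fold in week 6 WT for the fibrillar and other collagens and the profibrotic fibroblast markers. With 5 or more Myh11 UMIs the counts were 3 of 12 and 6 of 8. Over all members 5.42% of all genes were higher in week 6 WT and 5.49% in week 6 FasDel. The shares of all genes within the stricter choices of members are not given here. In week 6 FasDel 5 of 12 collagens (median 0.90, and 0.92 in the other cells) and 6 of 8 profibrotic genes (1.46, and 1.82) were past the fold, and 3 of 12 (Col6a3, Col8a1 and Col12a1; 0.86) and 6 of 8 (1.27) were so among members with an Actc1 UMI. Fibroblast markers were higher there too, with 4 of 9 past the fold (Pdgfra, Col14a1, Dcn and Clec3b; median 0.92, against -0.49 in the other cells), and their part in the collagen values was not tested. Of the 228 Dcn UMIs there, 75.9% were in 1 cell with 4 Myh11 and 4 Hhip UMIs, no Actc1, 14 Pdgfra UMIs and 372 of Col1a1. Col6a3, a chain of the microfibrillar collagen VI, was 137 CPM in naive, 168 and 218 CPM at week 3 and 482 and 390.0 CPM at week 6. Its log2 ratio of 1.79 in WT and 1.49 in FasDel became 1.30 and 1.78 in the stricter population, against 0.20 and 0.62 in the other cells. Thbs1, thrombospondin 1, an activator of latent TGF-beta, was 1028, 1324, 1439.6, 2672 and 2522 CPM, and its week 6 log2 ratios of 1.37 and 1.29 became 0.71 and 1.21.

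**Figure D3:**
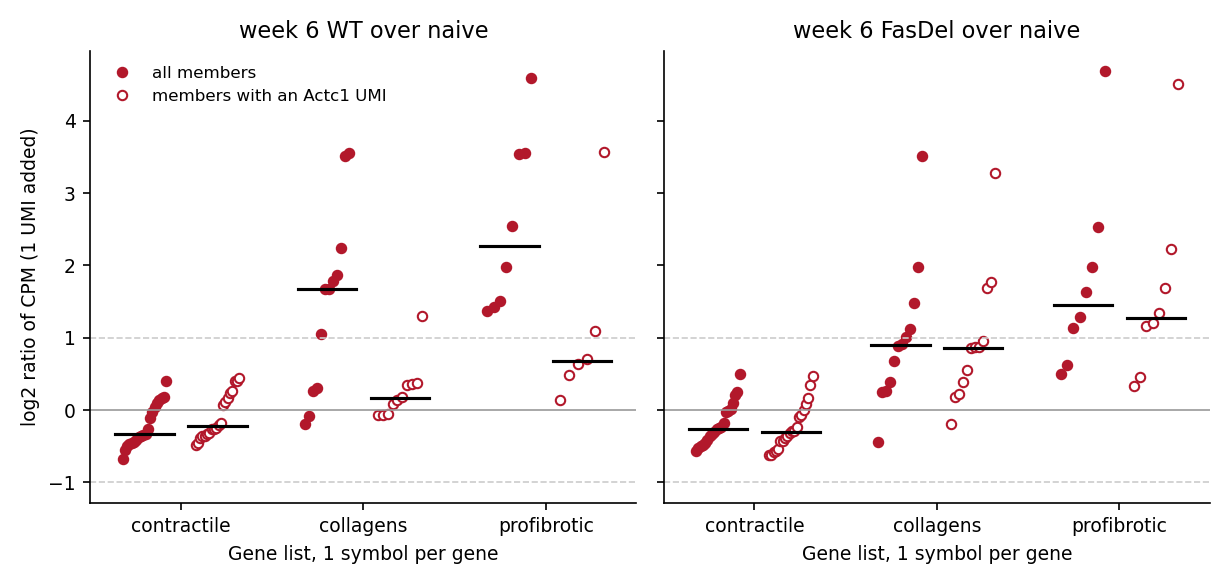
Log2 ratio over naive (y axis) of each gene of the contractile, collagen and profibrotic lists (x axis) at week 6 in WT (left) and FasDel (right) vascular smooth muscle-like cells; filled symbols are all members, open symbols members with an Actc1 UMI, bars are medians and dashed lines mark 2-fold. In WT the collagen median drops from 1.68 to 0.16 in the stricter population, and in FasDel it goes from 0.90 to 0.86.

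The genotype ratios at week 6 also changed when members without Actc1 were left out. At week 6 in FasDel over WT, 5 of 10 profibrotic genes (Cthrc1, Fn1, Tnc, Col12a1 and Runx1) were more than 2-fold lower, where 1.53% of all genes were. The median was -0.90 for the profibrotic fibroblast markers, and 0 of 8 were so among members with an Actc1 UMI (median 0.40). The fibroblast markers went the other way, with 4 of 9 higher (Pdgfra, Col13a1, Tcf21 and Clec3b) and 1, Dcn, lower. Of all genes 1.3% were higher. Their median was 0.87, against 0.32 in the other cells, and their part in the profibrotic values was not tested. The Col1a1 log2 ratio went from -1.11 to 0.50. Cthrc1 was 136 CPM in week 6 WT, where 5 cells held 98.8% of its UMIs, and 5.95 CPM in week 6 FasDel. It had 0 UMIs in naive members, which allows up to 8.54 CPM. At week 3 neither list was past the fold in more than 2 genes in one direction, and of the profibrotic list only Spp1 in WT was higher.

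Spp1 and Ifi27l2a were higher than naive in some libraries. Spp1, osteopontin, had 1 UMI in naive, 239 and 9 at week 3 in WT and FasDel and 167 and 221 at week 6. At week 6 Spp1 was seen in 64.8% and 61.3% of members and in 63.2% and 68.3% of all other kept cells, where its level was 4009 and 8176 CPM against 137 and 146 CPM in members. The part of free RNA in the member values was not tested. The ratios over naive were 24.2 (interval 8.51 to 1910.1) and 25.8 (9.11 to 2035), and the other cells had log2 ratios of 4.47 and 5.50. In week 3 WT 5 cells held 95.8% of the Spp1 UMIs. Ifi27l2a, an interferon-induced gene, had 1 UMI in naive and was 45.1 to 190.4 CPM after bleomycin, and in week 6 FasDel it was 3.76 times week 6 WT (2.88 to 5.10), with a log2 ratio of 1.91 against 1.71 in the other cells.

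Proliferation was seen in few members. Mki67 or Top2a had a UMI in 6 of 150 members of week 6 FasDel, in 1 of week 6 WT and in 0 of the other 3 libraries. The week 6 WT cell was 1 of the 3 members with most Col1a1 there, and it had no Actc1. In week 6 FasDel 1 cell with 4 Myh11, no Actc1, 14 Pdgfra and 372 Col1a1 UMIs held 14 of the 40 Mki67 and 10 of the 58 Top2a UMIs. The proliferation list summed to 192 CPM in week 6 FasDel and at most 16 CPM elsewhere. Hist1h2ap, a histone gene, led the week 6 genotype ratios (log2 4.03, 80 UMIs against 3), with 57.5% of its UMIs in 1 cell, and 5 cells held 96.0% of those of Stmn1.

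Some of the genes with the highest or lowest ratios had similar ratios in all other cells. Gstp1, a glutathione transferase, was at 20.4 CPM in week 3 FasDel against 444 in naive, a log2 ratio of -4.36, and was -3.98 in the other cells. Bc1, a small brain cytoplasmic RNA, was 738 CPM in week 3 FasDel, a log2 ratio over week 3 WT of 3.16, and 2.83 in the other cells. Hbb-bs, adult beta globin, was lower in all 4 comparisons with naive, and the red cell list summed to 119.6 CPM in naive members and 6.61 to 27.7 CPM elsewhere. Also among the highest over naive were Pcdh18, Prune2 and Trpc6 at week 3 in WT, Il2, S1pr3 and AY036118 at week 3 in FasDel, and Igf1, Serpina3n, Lum, Emp1 and Stmn1 at week 6. Among the lowest were Sfrp2, Col15a1, Rab2b, Plac9b, Ccdc85b, Ccdc3, Nme2, Nutf2, Grp, Tbcc and Dhrs3. Between genotypes Wdr89, Hmcn1, Serpinb1a and Tpm3-rs7 were higher and Lurap1l, Spp1, Tubgcp2 and Cxcl1 lower in FasDel at week 3. At week 6 Dpep1, Hp, Igfbp3 and Ces1d were higher and Nrp2, Rgs16, Basp1 and Ank lower. Several of these ratios rested on few cells, as 1 cell held 70.7% of the Hp UMIs in week 6 FasDel and 81.4% of the Ank UMIs in week 6 WT, where 5 cells held 97.3% of those of Rgs16 and 94.4% of those of Basp1. The Igfbp3 log2 ratio of 2.79 was 0.75 with cells weighted equally. At week 3 the Hmcn1 log2 ratio between genotypes went from 1.94 to 1.06 in that way. In week 3 WT 1 cell held 66.3% of the Cxcl1 UMIs. The Cxcl1 log2 ratio of -2.39 was -0.46 among members with an Actc1 UMI. Likewise 5 cells held 94.9% of the Igf1, 95.1% of the Lum and 90.6% of the Emp1 UMIs in week 6 WT. In naive 1 cell held 76.5% of the Grp, 75.0% of the Ccdc3 and 68.4% of the Sfrp2 UMIs, and with cells weighted equally the log2 ratio of Grp in week 6 FasDel went from -2.37 to -0.92 and that of Sfrp2 in week 3 FasDel from -2.93 to -1.17.

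In the bulk libraries of all Lin- cells many transcripts of the vascular smooth muscle-like cells fell at week 3. The 20 libraries held 11819700 to 25189100 counts, and 15773 genes were tested together with edgeR's quasi-likelihood test and Benjamini-Hochberg adjustment. In bulk RNA, fewer smooth muscle cells, less RNA per cell and changes in the other cells cannot be told apart. Fas itself was 23.9, 21.1, 21.9 and 21.4 CPM in the 4 naive libraries, 57.7, 34, 34.1 and 38.4 at week 3 in WT and 42.3, 35.4, 34.4 and 64.9 in FasDel, 26.1, 32.7, 39.7 and 27.1 at week 6 in WT and 35.6, 46.6, 39.1 and 40.3 in FasDel. All bleomycin libraries were above all naive ones, with rises of 0.90 and 1.00 on the log2 scale in week 3 WT and FasDel and 0.87 in week 6 FasDel (adjusted p = 0.00183, 0.00126 and 0.0140 by edgeR). In week 6 WT the log2 fold change of 0.51 did not pass (adjusted p = 0.158 by edgeR), and the genotypes overlapped at each week (log2 fold change 0.11 ± 0.20 SE, adjusted p = 0.910 by edgeR, and 0.36 ± 0.20, adjusted p = 0.719).

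Of the smooth muscle set 179 of 181 genes were tested. In week 3 WT 90 of 179 (50.3%) fell and 11 (6.15%) rose compared with naive, where of all genes 19.2% fell and 22.1% rose. In week 3 FasDel 83 (46.4%) fell and 5 (2.79%) rose, against 14.8% and 17.2% of all genes. The median log2 fold change of the set was -0.56 and -0.57, and of all genes 0.01 and 0.02. Leaving out the contractile list and the 5 markers, 84 and 75 of 167 genes fell. The 5 that rose in both groups were Itga5, the fibronectin receptor subunit, Lrrfip1, Ncam1, Pls3 and Actn1. The 5 called in week 3 FasDel became 2 without naive replicate 1 or without week 3 FasDel replicate 2 or 3, and 3 without naive replicate 3 or 4 or week 3 FasDel replicate 1. By week 6 in WT 2 of 179 genes (1.12%) fell, Wwp2 and Mylk4, and 0 rose, against 1.74% and 3.57% of all genes (38 had an unadjusted p under 0.05, and DESeq2 called 7 lower and 2 higher). In week 6 FasDel 23 (12.8%) fell and 2 rose, Rasd1 and Grin2a, against 2.81% and 3.66%, with a median of -0.35 (-0.23 in week 6 WT). DESeq2 called 36 lower there. The 23 became 9 without week 6 FasDel replicate 2 and 49 without week 3 FasDel replicate 4, and the 2 that fell in week 6 WT became 12 without the latter and 1 without naive replicate 2. Calls over all genes also depend on the fit, and their shares in these alternatives are not given here.

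**Figure D4:**
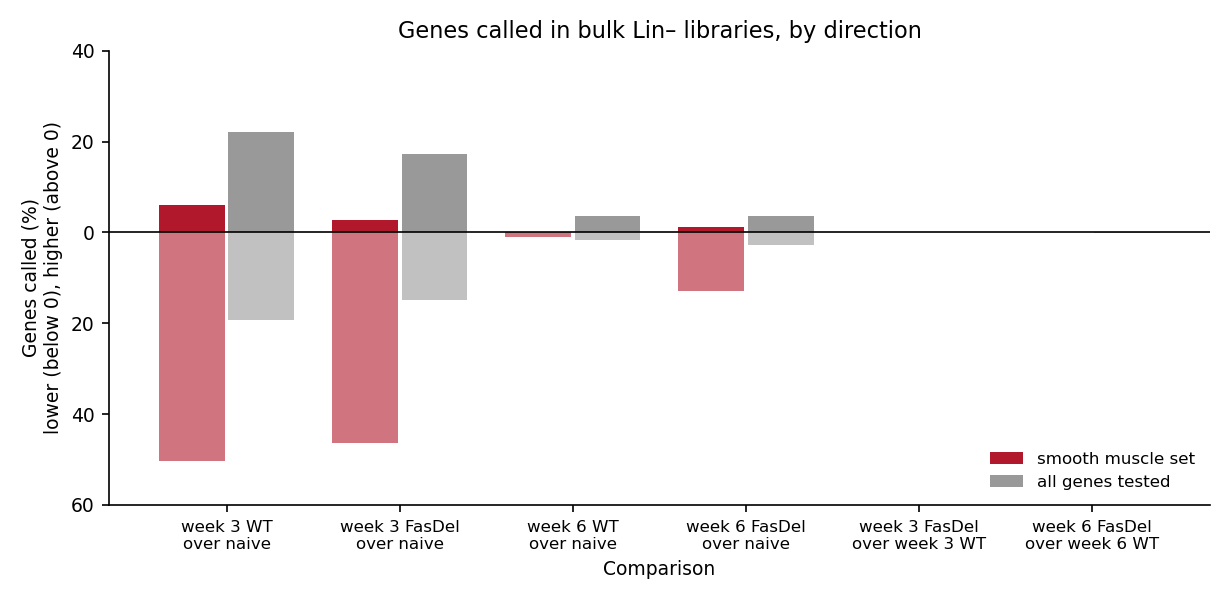
Percent of genes called higher (up) or lower (down) by edgeR at an adjusted p under 0.05 in 6 bulk comparisons (x axis), for the 179 tested genes of the smooth muscle set and for all 15773 genes. At week 3 50.3% and 46.4% of the set fell, against 19.2% and 14.8% of all genes, and at week 6 1.12% and 12.8% against 1.74% and 2.81%.

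Between genotypes no gene of the set was called at either week, where 0.165% of all genes were higher and 0.00634% lower in FasDel at week 3 and 0.0254% and 0.0254% at week 6. At both weeks 14 set genes had an unadjusted p under 0.05, and DESeq2 called 1 higher and 1 lower at week 3 and 1 lower at week 6. Without week 3 FasDel replicate 4 edgeR called 12 set genes higher and 3 lower at week 3. For DESeq2 and for this fit the shares of all genes are not given here, so these counts have no background beside them. The set median was 0.05 at week 3 and -0.17 at week 6. The larger number of calls against naive in FasDel than in WT at week 6 was itself not tested.

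The markers followed the set. Myh11 was 1060.4, 1648, 1238 and 1212 CPM in the naive libraries, and 662, 519, 427 and 603 CPM at week 3 in WT. In week 3 FasDel it was 772, 804, 827 and 349 CPM. At week 6 it was 1222, 1027, 1046 and 938 CPM in WT and 810.0, 706, 1025 and 708 CPM in FasDel. Neither week 3 group overlapped the naive libraries, and both weeks' genotypes overlapped. Myh11 fell by 1.22 ± 0.22 (SE) on the log2 scale in week 3 WT (adjusted p = 4.09e-04 by edgeR; exact two-sided permutation p = 0.0286, the smallest that 4 against 4 libraries allow). It fell by 0.91 ± 0.22 in week 3 FasDel (adjusted p = 0.00535 by edgeR). At week 6 the log2 fold change was -0.29 (adjusted p = 0.525) in WT and -0.67 (adjusted p = 0.0834) in FasDel by edgeR.

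Actc1 was 219.8, 404, 280.5 and 286 CPM in naive, 143, 104, 77.5 and 152 CPM in week 3 WT and 188, 194, 195 and 72.6 CPM in week 3 FasDel. At week 6 it was 219.9, 233, 223 and 243 CPM in WT and 116, 144, 221 and 159 CPM in FasDel. It fell by 1.32 ± 0.28 in week 3 WT (adjusted p = 0.00138 by edgeR) and by 0.87 ± 0.28 in FasDel (adjusted p = 0.0235), and neither group overlapped naive. Cnn1 fell by 1.00 and 0.80 (adjusted p = 0.00418 and 0.0208 by edgeR), Lmod1 by 1.17 and 1.08 (7.41e-04 and 0.00207) and Lgr6 by 0.76 and 0.76 (0.0107 and 0.0143). Fitted on the compared groups alone, the Actc1 call in week 3 FasDel was lost, and Cnn1 and Actc1 both missed the threshold there without naive replicate 2.

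Itih4 and Acta2 were less clear. Itih4 was 85.4, 146, 88.3 and 95.4 CPM in naive, 45.6, 79.7, 61.2 and 72.1 in week 3 WT and 104, 122, 116 and 37.8 in week 3 FasDel. At week 6 it was 86.3, 69.1, 66.1 and 49.4 CPM in WT and 52.5, 44.1, 64.7 and 51.7 CPM in FasDel. Its log2 fold changes of -0.68, -0.13, -0.61 and -0.96 all missed the threshold (adjusted p = 0.0634, 0.768, 0.240 and 0.0516 by edgeR). The sign in week 3 FasDel turned when 1 library was left out, to 0.13 without week 3 FasDel replicate 4 and to 0.082 without naive replicate 2. Acta2, which is also made by myofibroblasts, had log2 fold changes of -0.53 (adjusted p = 0.0846 by edgeR) in week 3 WT and -0.64 (0.0482) in week 3 FasDel. The latter call was lost in 16 of 20 fits that left out 1 library. Hhip, of the neighbouring population, fell in all 4 groups, by 1.39, 1.03, 0.70 and 0.93 (adjusted p = 2.11e-05, 4.55e-04, 0.0278 and 0.00494 by edgeR), and the week 6 WT call was lost in 6 of 20 such fits. Col1a1 rose by 1.04 in week 3 WT (adjusted p = 0.0377 by edgeR), a call lost in 9 of 20 such fits, and had log2 fold changes of 0.78, -0.48 and 0.09 in the other groups, none of which passed.

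**Figure D5:**
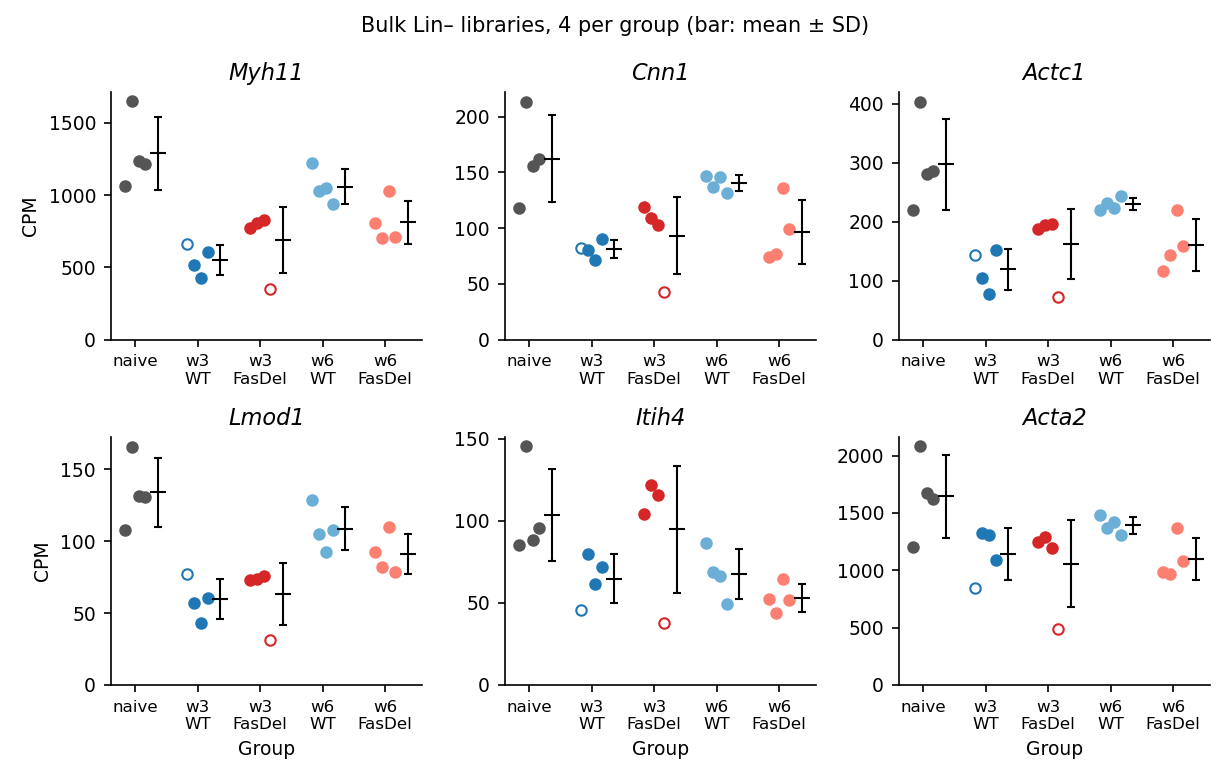
Level (CPM, y axis) of 6 smooth muscle genes in each of the 20 bulk libraries by group (x axis), with the mean and SD of 4 libraries; open symbols are week 3 WT replicate 1 and week 3 FasDel replicate 4, the libraries with the highest endothelial marker sums. Myh11 lies at 1060.4 to 1648 CPM in naive and at 349 to 827 CPM in both week 3 groups.

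Other cells moved with these falls. The summed endothelial list, led by Cdh5, was 169.6, 451, 252 and 225 CPM in naive and 8829.6, 3061, 2400.1 and 2276 CPM in week 3 WT. In week 3 FasDel it was 1064, 625, 667 and 8077 CPM. All 10 endothelial markers rose in week 3 WT and 9 in week 3 FasDel, 7 of 8 hematopoietic and 7 of 9 epithelial markers rose in both, and all 5 red cell genes fell in all 4 comparisons. Of all genes 22.1% rose and 19.2% fell in week 3 WT, and 17.2% rose and 14.8% fell in week 3 FasDel. At week 6 1.74% of all genes fell in WT and 2.81% in FasDel. Among related cells, 5 of 9 pericyte markers (median log2 fold change -0.83 and -0.60) and 9 and 8 of 12 fibroblast markers fell, while 11 of 12 profibrotic markers rose in both groups. The part of these in the smooth muscle result was not tested. Without the libraries of highest endothelial sum, week 3 WT replicate 1 and week 3 FasDel replicate 4, 105 set genes fell and 15 rose in week 3 WT, and 80 fell and 11 rose in FasDel. In that fit 23 fell in week 6 WT, 65 fell in week 6 FasDel, and 13 were higher and 2 lower in FasDel than in WT at week 3. The shares of all genes called in that fit are not given here, so its counts cannot be set against a background.

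By function, 11 of 20 contractile genes fell in week 3 WT (median -0.66) and 12 in week 3 FasDel (-0.57), where 19.2% and 14.8% of all genes fell, the other 9 and 8 did not pass and none rose. Those that fell in both included Mylk, myosin light chain kinase, Synm, Ppp1r14a and Myl9. The contractile sum was 10806, 13466, 11784 and 11577 CPM in naive, 6719, 8626, 8550.5 and 8402 in week 3 WT and 9682, 9954, 9639 and 5851 in week 3 FasDel, so neither group reached the naive range. At week 6 no contractile gene was called in WT and Ppp1r14a and Synm fell in FasDel. Of 17 calcium handling genes 11 fell in each week 3 group and 6 did not pass, none rose, and those that fell in both included Stim1, Itpr1, Kcna5, Kcnma1 and Kcnmb1. Of 20 vasoactive genes 9 and 7 fell, including the guanylate cyclase subunits Gucy1a1 and Gucy1b1 and the adrenergic receptors Adra1a and Adra1d.

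Of 12 Notch genes 6 rose and 4 fell in week 3 WT (22.1% and 19.2% of all genes) and 3 rose and 3 fell in week 3 FasDel (17.2% and 14.8%), and none was called at week 6. In week 3 WT the mural genes Notch3, Hey2, Heyl and Notch2 fell while the ligands Jag1, Jag2, Dll1 and Dll4 rose with Hey1 and Notch1, which endothelial cells also make. In week 3 FasDel Notch3, Hey2 and Notch2 fell and Dll1, Jag2 and Dll4 rose. Of the regulators Nr2f2 fell in both week 3 groups and Myocd in WT. Eln rose in both week 3 groups in bulk, whereas in the vascular smooth muscle-like cells of the single-cell libraries it was lower at that time.

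The set genes with the smallest p are less familiar smooth muscle products. In week 3 WT they were Fam129a, Ntf3, neurotrophin 3, the antisense RNA E030013I19Rik, Adam33, a membrane metalloproteinase, and Itga5. Ntf3 was 11.0, 13.3, 11.2 and 10.0 CPM in naive and 5.50, 3.30, 2.92 and 3.24 CPM in week 3 WT. Ntf3 fell by 1.60 ± 0.21 (SE) on the log2 scale (adjusted p = 2.26e-05 by edgeR). In week 3 FasDel Ntf3 was 4.52, 4.11, 4.43 and 2.85 CPM. At week 6 it was 10.9, 8.79, 6.45 and 7.15 CPM in WT and 6.27, 5.99, 5.31 and 4.43 CPM in FasDel, where it fell by 1.05 (adjusted p = 0.00526 by edgeR). The week 6 FasDel libraries all lay below the week 6 WT ones for Ntf3, but that difference did not pass (adjusted p = 0.358 by edgeR; exact permutation p = 0.0286). Fam129a fell by 1.02 and Adam33 by 1.68 in week 3 WT, while Itga5 rose by 1.79. E030013I19Rik (chr2:12300946-12312315, plus strand) fell by 1.81, with the reservation that reads of an antisense gene and its partner may not be separated by the counting. In week 3 FasDel the smallest p belonged to Cdc42ep3, Ntf3, Kank1, Itga5 and Lrrfip1.

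Mylk4, first of the smooth muscle set by the ratio of pooled CPM, fell in all 4 bleomycin groups. It was 10.6, 24.5, 17.5 and 17.6 CPM in naive, 4.96, 4.2, 3.37 and 4.26 CPM in week 3 WT and 8.23, 8.89, 8.32 and 3.16 CPM in week 3 FasDel. At week 6 it was 10.4, 7.57, 7.09 and 4.88 CPM in WT and 5.69, 4.41, 5.59 and 5.90 CPM in FasDel. No bleomycin library reached the naive range. Mylk4 fell by 2.06 ± 0.30, 1.30 ± 0.29, 1.23 ± 0.28 and 1.70 ± 0.29 on the log2 scale (adjusted p = 5.34e-05, 0.00268, 0.0150 and 0.00234 by edgeR). The week 6 WT call was lost in 3 of 20 fits that left out 1 library. In the single-cell libraries Mylk4 was 131 CPM in naive members and 44.0, 52.4, 82.8 and 112 CPM after bleomycin. In week 6 FasDel Slc16a7, a monocarboxylate transporter, fell by 0.88, Casq1, a calcium-binding protein of the sarcoplasmic reticulum, by 1.55 and Sh3bgr by 0.96. Casq1 was 1.46 to 5.39 CPM in naive and 0.783 to 1.43 CPM in week 6 FasDel.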

How the data were processed

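The authors deposited raw gene counts for 20 bulk libraries (trimmed with skewer, aligned with HISAT2 and counted with HTSeq on GRCm38, strand setting not given in the sources used here) and Cell Ranger UMI counts for 5 single-cell libraries. A deposited table of normalized counts was not used, and 0 columns of per-sample values were left unmapped. The members, gene lists and tests were chosen with earlier results of these data known.

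The cell filter was 200 to 7500 detected genes, with mitochondrial UMIs of 20% or less. UMIs were summed over members per library, ratios used a pseudocount of 1 UMI and at least 30 UMIs in the pair, and their 95% intervals and floors of 3 counts cover counting error only. Within-library class ratios used a pseudocount of 10 CPM and at least 50 UMIs. Scrublet called 49 of 12059 cells as doublets (0.406%, 3 of them members). Whether the tool missed doublets was not tested, and no doublets were removed. The smooth muscle set held genes at 4 times every other class by pooled CPM with no pseudocount (a class at 0 was set to 1 UMI), with UMIs in at least 4 libraries. For bulk, 114 rows were given the single-cell symbols by Ensembl ID (2 in the set), and one edgeR quasi-likelihood model over all 5 groups was fitted with TMM scaling and Benjamini-Hochberg adjustment over all tested genes, at 0.05. The study's methods give replicates as individual animals, while the labels only number the bulk libraries. Scripts were tested on simulated data.

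Named genes were the 5 markers with Lgr6, Fas, Col1a1, Acta2 and Hhip, and the leading members of each list. They included the 10 highest class ratios and the 5 highest and 5 lowest ratios per pair of conditions. Also included were the 10 genes of highest variance-to-mean ratio and the 5 set genes with the smallest p per bulk comparison with calls. Other genes were chosen after their values were seen. Alternatives were another scaling, filter, pseudocount, UMI minimum or threshold, DESeq2, a replicate block, leaving out each library, and, added after seeing the data, keeping each barcode once, weighting cells equally, requiring Actc1 and leaving out 2 bulk libraries. Software was R 4.3.3 with edgeR 4.0.16, DESeq2 1.42.0 and limma 3.58.1, and Python 3.11.15 with numpy 2.4.6, scipy 1.17.1, pandas 2.3.3 and scanpy 1.11.5.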

Additional observations from a re-analysis of the deposited data

Results flagged for a closer look

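In bulk, 24 of 155 groups of 4 libraries had a highest or lowest library far from the others by Dixon's ratio of gap to range, where chance flags about 1 in 20. The groups are genes and overlapping list sums in the same libraries, so they are not independent and the number flagged cannot be judged against that rate. Week 3 FasDel replicate 4 was the lowest for Mylk4 (3.16 CPM, others 8.23 to 8.89), Actc1 (72.6, others 188 to 195), Myh11 (349, others 772 to 827), Acta2 (489.6, others 1197 to 1292), Lmod1 (31.2), Kank1 (64.5) and Hhip (178). It was also lowest for the summed CPM of the smooth muscle set (10116.5), the contractile apparatus (5851), the vascular smooth muscle markers (550.1) and the pericyte markers (1287), and highest for the endothelial markers (8077, others 625 to 1064). Week 3 WT replicate 1 was highest for Ntf3 (5.50 CPM) and for the endothelial (8829.6), epithelial (701) and hematopoietic (433) sums, and lowest for the smooth muscle set (11692) and contractile (6719) sums.

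Week 6 FasDel replicate 2 was highest for the endothelial (2631 CPM) and hematopoietic (128) sums. Itih4 was highest in naive replicate 2 (146 CPM, others 85.4 to 95.4). Adam33 was highest in week 3 FasDel replicate 3 (46.8 CPM, others 36.0 to 36.5). Itga5 was lowest in naive replicate 1 (66.0 CPM) and in week 6 WT replicate 1 (99.96 CPM). The part of the other cell types in these values was not tested.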

How the results depend on the processing

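Of the counts and shares, 347 values under an alternative moved little and 103 moved. With a pseudocount of 10 UMIs, genes past 2-fold numbered 17 higher and 448 lower in week 3 WT over naive, 27 higher in week 3 FasDel, 50 and 423 in week 6 WT, 30 and 762 in week 6 FasDel, 17 lower in FasDel over WT at week 3, and 33 and 67 at week 6. With a minimum of 100 UMIs they were 36 and 21, 33 and 27, 92 and 24, 93 and 28, 6 and 16, and 20 and 28. That minimum left 2326, 1617, 2535, 2954, 2815 and 4205 genes, against 6145, 4799, 6477, 6996, 6834 and 8307 with 30 UMIs. With cells weighted equally, 238 were lower in week 3 WT, 227 in week 6 WT and 289 in week 6 FasDel, with 168 higher and 222 lower between genotypes at week 3 and 233 and 231 at week 6. With an Actc1 UMI required, 77 were lower between genotypes at week 6. Ank reversed to 0.11 with 5 or more Myh11 UMIs. At most 10% mitochondrial UMIs gave a week 6 FasDel share of 4.28%.

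For the smooth muscle set in bulk, the counts under each alternative are given without the share of all genes called in the same fit. Week 6 FasDel had 1 higher with no filter. DESeq2 called 2 higher and 7 lower in week 6 WT, 36 lower in week 6 FasDel, 1 and 1 between genotypes at week 3 and 1 lower at week 6. Without the 2 week 3 libraries of highest endothelial sum, 11 were higher in week 3 FasDel, 6 higher and 23 lower in week 6 WT, 5 and 65 in week 6 FasDel, 13 and 2 between genotypes at week 3 and 2 lower at week 6. At 8-fold the set held 87 tested genes, against 179 at 4-fold, and gave 2 and 55, 0 and 52, 1 lower in week 6 WT and 1 higher in week 6 FasDel. At 2-fold it held 386 and gave 50 and 169, 32 and 148, 8 and 7, and 7 and 42. Fits of the 2 compared groups alone gave 55 lower in week 3 FasDel, 3 and 17 in week 6 WT and 41 lower in week 6 FasDel. Leaving out 1 library gave 8 to 14 higher and 73 to 107 lower in week 3 WT, 2 to 7 and 57 to 90 in week 3 FasDel, 0 to 1 and 1 to 12 in week 6 WT, 0 to 3 and 9 to 49 in week 6 FasDel, 0 to 12 and 0 to 3 between genotypes at week 3 (the highest without week 3 FasDel replicate 4) and 0 at week 6.

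With the replicate block, 4 set genes were lower in week 6 WT and 1 higher in week 6 FasDel. Over all groups together replicate numbers did not pair the libraries, since 20 of 40 same-numbered pairs correlated above 0.1 (median 0.0844, against -0.0350 for the other 120) and 7 of 20 libraries correlated best with their own number. Between naive and week 6 FasDel, however, all 4 same-numbered pairs were above 0.1 (0.186, 0.413, 0.216 and 0.352), so a pairing of these 2 groups stays possible.

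Without 1 library, the log2 fold change of Col1a1 in week 6 FasDel over naive ran from -0.092 to 0.22 and that of Itih4 in week 3 FasDel over naive from -0.28 to 0.13 (0.13 also without the 2 week 3 libraries). Between genotypes at week 3 the ranges were -0.035 to 0.32 for Lmod1, -0.14 to 0.22 for Lgr6 (0.16 without the 2 libraries), -0.12 to 0.32 for Fas and -0.23 to 0.13 for Acta2 (0.0014 without the 2 libraries), so these 6 changed sign. None of these was called, and the cause was not tested. With 1 single-cell library per condition, no alternative supplies a replicate.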
